A study of Mus musculus with 4 samples.

Results

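Renal genes of vitamin D turnover, klotho and calcium handling were read in kidney RNA of mice with ischemia-reperfusion injury or sham surgery. The 8 genes were Cyp27b1, Cyp24a1, Vdr, Kl, Calb1, Pth1r, Casr and S100g. They were chosen by name, with earlier results of these data known, from 18193 genes with a probe set on the array. Every probe set that the array annotation gives to one of these symbols alone was taken, 15 of 45037 in all. Male C57Bl/6 mice made up all 4 groups, and 1 array per group held RNA pooled from 3 mice. The groups were labelled Tet2KO_IR (genotype Tet2KO, 60 min of renal ischemia and 24 h of reperfusion), Tet2KO_Sham (genotype Tet2KO, sham surgery), WT_IR (wild type, the same injury) and WT_Sham (wild type, sham surgery). The labels used here name no Tet2 allele, no cell type of deletion and no age, and the mice of a pool cannot be told apart.

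The kidney is the main site where vitamin D is activated. In the proximal tubule Cyp27b1 converts the circulating precursor to the hormone calcitriol, and Cyp24a1 breaks both down, while calcitriol acts through the nuclear receptor Vdr, which is known to raise Cyp24a1 and the calbindins. Parathyroid hormone, through Pth1r, raises Cyp27b1. Bone-derived FGF23, which needs klotho (Kl) as co-receptor, lowers Cyp27b1, raises Cyp24a1 and reduces phosphate uptake. In the distal nephron, calcium is taken up from the urine, carried through the cell by the calbindins Calb1 and S100g, and passed to the blood.

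The values are log2 signals, so 1 unit is a 2-fold difference. Signals under a floor of 5.72, the 40th percentile of all signals, were set to it for ratios, and a ratio with a signal under the floor on one side only is written as a bound. The line for calling a gene higher or lower was a 2-fold difference. With 1 array per group there is no replicate check and no test of any difference given here. Beside the ratios stands a technical SD, the scatter of the ratio among probe sets that read one gene: 0.41 for Tet2KO_IR over Tet2KO_Sham, 0.24 for WT_IR over WT_Sham, 0.34 for Tet2KO_IR over WT_IR and 0.20 for Tet2KO_Sham over WT_Sham. It was pooled over genes with more than 1 probe set at or over the floor in the arrays compared. It does not cover differences between mice, and a gene read by 1 probe set, such as Cyp27b1, has no part in it.

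Facts of the arrays bear on all of these values. The array medians lay between 6.28 and 6.33. Both Tet2 probe sets had much the same or a higher signal in the Tet2KO_Sham array than in the WT_Sham array, with log2 ratios of -0.09 and 0.41, and a lower one in Tet2KO_IR than in WT_IR, with -0.41 and -0.70. Whether they lie in the deleted part of the gene is not given in the sources used here, and the arrays are called by their labels. Fat markers, with 5 of 7 listed genes matched, had summed linear signals of 1513 in Tet2KO_IR, 161 in Tet2KO_Sham, 261 in WT_IR and 2200 in WT_Sham, and their part in the results was not tested. In bulk kidney RNA, fewer cells of a type and less RNA per cell cannot be told apart.

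Of the 8 genes, the enzymes of vitamin D turnover showed the highest ratios, a different one in each genotype. After ischemia-reperfusion Cyp27b1, the activating enzyme, was high in the array labelled Tet2KO, and Cyp24a1, the degrading enzyme, was highest in the wild-type array. Klotho and Calb1 were lower after ischemia-reperfusion in both genotypes, on the probe sets used by 2-fold or more in the Tet2KO-labelled pair alone; whether the genotypes differ could not be tested. The plot of every probe set by array shows these 4 genes beside Vdr, Pth1r, Casr and S100g, whose signals spanned less than 1 log2 unit on the probe sets used.

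**Figure D1:**
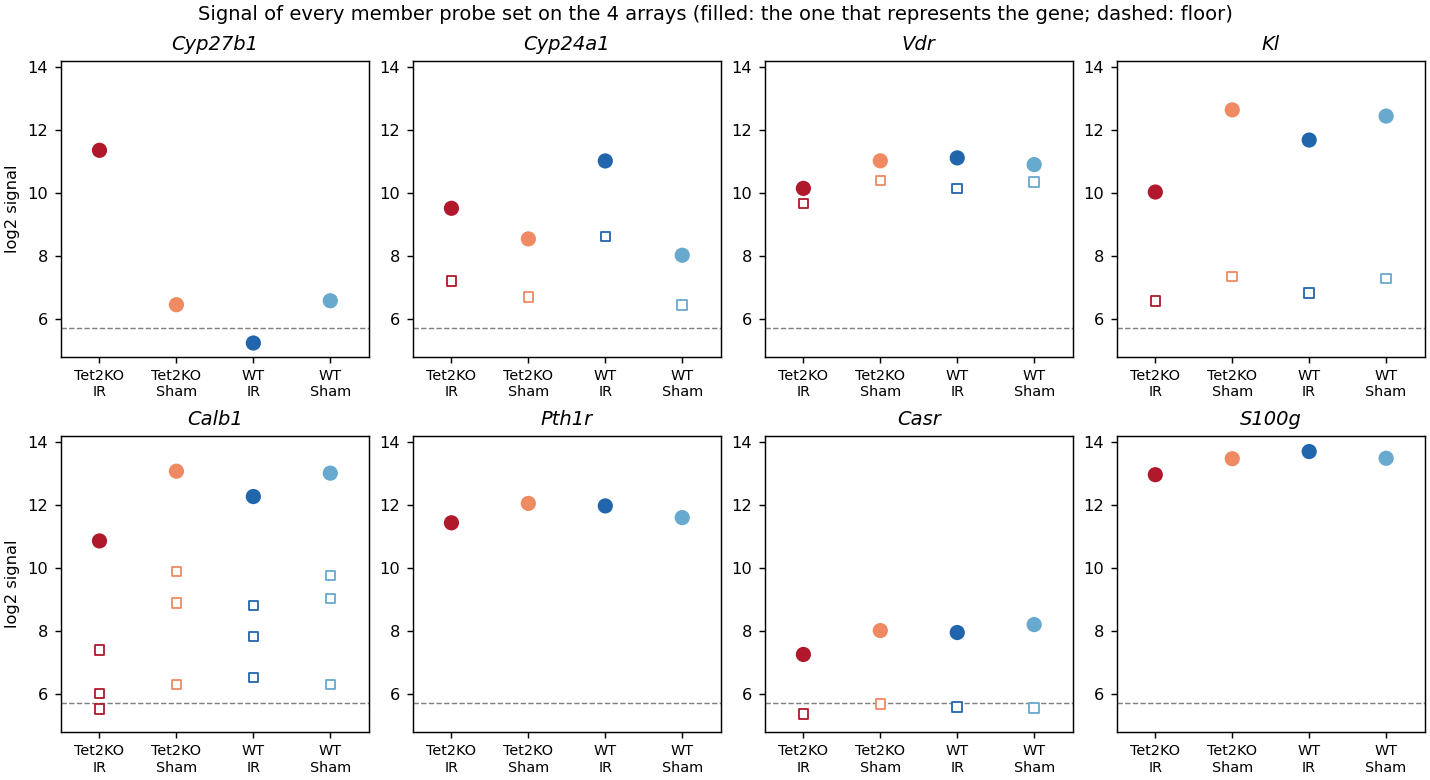
Log2 signal of all 15 probe sets of the 8 genes on each array (1 array of 3 pooled mice per group); filled circles mark the probe set that represents the gene, open squares the other probe sets, and the dashed line the floor of 5.72. Cyp27b1 stands at 11.36 in Tet2KO_IR and under the floor in WT_IR, Cyp24a1 is highest in WT_IR, and Kl and Calb1 are lowest in Tet2KO_IR.

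Cyp27b1 (chromosome 10, 127048246 to 127054884, GRCm38.p6) was read by 1 probe set. Its log2 signals were 11.36 in Tet2KO_IR, 6.45 in Tet2KO_Sham, 5.23 in WT_IR and 6.58 in WT_Sham. The Tet2KO_IR array thus stood far above the other 3, which lay near or under the floor. The log2 ratio of Tet2KO_IR to Tet2KO_Sham was 4.91, a 30.1-fold difference and 12.05 times the technical SD, and 99.9% of 13600 measured genes had a lower ratio. In wild type Cyp27b1 was at least 1.81-fold lower after ischemia-reperfusion, as WT_IR was under the floor; with a floor at the 50th percentile the bound was a log2 ratio of only -0.27. Set against WT_IR, the Tet2KO_IR signal was at least 49.9-fold higher, whereas Tet2KO_Sham and WT_Sham differed by a log2 ratio of -0.13, within the technical SD.

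Macrophages are a source of Cyp27b1 outside the nephron, so their markers are given beside it. All 10 listed macrophage genes were matched, and their summed linear signal was 3382 in Tet2KO_IR, 4015 in Tet2KO_Sham, 2298 in WT_IR and 4043 in WT_Sham. Csf1r held most of the sum in the sham arrays, and without it, a choice made after seeing the data, the other 9 summed to 2824 in Tet2KO_IR, 1322 in Tet2KO_Sham, 1287 in WT_IR and 1447 in WT_Sham. Most of this second sum in Tet2KO_IR was Cd14, with a log2 signal of 10.84 there and 6.48 in Tet2KO_Sham. Cd14 was 20.5-fold higher and Csf1r 4.82-fold lower in Tet2KO_IR than in Tet2KO_Sham. Of 9 measured macrophage genes 2 were higher and 3 lower in the Tet2KO-labelled pair, against 2 higher and 4 lower in the wild-type pair, and Itgam was under the floor in all 4 arrays. Between the ischemia-reperfusion arrays 2 of the macrophage genes were higher, Cd14 and C1qa, and 0 lower. Of all measured genes 6.06% were higher and 6.89% lower in the Tet2KO-labelled pair, and 2.06% and 2.18% in the wild-type pair. Between the ischemia-reperfusion arrays 3.68% were higher and 3.99% lower. The part of macrophages in the Cyp27b1 signal was not tested. Markers of injured tubule, 7 of 8 matched, summed to 49782 in Tet2KO_IR, 2070 in Tet2KO_Sham, 27362 in WT_IR and 3509 in WT_Sham, and their part in the Cyp27b1 signal was not tested.

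The 250 bases before the annotated start of 3 members are shown because they differ in the letters common in promoters: Cyp27b1 for its ratio, Kl as the member with the lowest ratio in the Tet2KO-labelled pair, and S100g, a known vitamin D target. The sequences are from RefSeq on GRCm38.p6, 5′ to 3′ on the gene's strand, at chr10:127047996-127048245 (plus strand) for Cyp27b1, chr5:150952357-150952606 (plus strand) for Kl and chrX:162964600-162964849 (minus strand) for S100g. Capitals mark matches on either strand to the TATA box forms TATAAA and TATATA, to the CCAAT box and to the GC box GGGCGG. In the same way they mark AGGTCA and AGTTCA, each only part of a vitamin D receptor element, and TGACG, part of the cAMP response element.
Cyp27b1: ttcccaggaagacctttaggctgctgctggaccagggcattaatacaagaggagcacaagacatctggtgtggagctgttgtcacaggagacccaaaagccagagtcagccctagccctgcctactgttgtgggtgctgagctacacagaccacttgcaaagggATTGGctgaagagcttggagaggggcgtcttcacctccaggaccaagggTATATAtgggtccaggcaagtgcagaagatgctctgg
Kl: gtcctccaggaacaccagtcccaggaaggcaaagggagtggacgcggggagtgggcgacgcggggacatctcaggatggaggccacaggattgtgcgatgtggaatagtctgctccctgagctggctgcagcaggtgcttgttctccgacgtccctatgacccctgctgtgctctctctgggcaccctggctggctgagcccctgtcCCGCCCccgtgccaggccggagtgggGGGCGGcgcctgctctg
S100g: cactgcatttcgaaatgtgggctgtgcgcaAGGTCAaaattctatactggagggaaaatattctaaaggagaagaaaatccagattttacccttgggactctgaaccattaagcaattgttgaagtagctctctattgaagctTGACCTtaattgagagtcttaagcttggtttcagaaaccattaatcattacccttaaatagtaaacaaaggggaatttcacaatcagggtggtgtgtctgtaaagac

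The Cyp27b1 window held TATATA 37 bases before the start, a palindrome that reads the same on both strands, and CCAAT on the opposite strand 86 bases before it. Among 32851 promoter windows of this length, 5.25% held TATATA and 33.8% CCAAT. Kl had a GC-rich window (66.8% G or C) with GGGCGG at 2 places, which 32.7% of windows held at least once. The S100g window (38.4% G or C) held AGGTCA once on each strand, and 14.02% of windows held it. Neither AGGTCA nor AGTTCA was found in the Cyp27b1 or Kl window. Of the other members, Vdr, Pth1r and Casr had windows in the table; AGTTCA, found in 11.8% of windows, was in the Vdr window, and TGACG, found in 17.8%, in 1 of the 3 Pth1r windows. GGGCGG was also in the Vdr window and in Pth1r windows, and CCAAT in a Pth1r window. TATAAA, in 12.4% of windows, was in none of the members' 8 windows. These are matches of letters, not sites shown to be bound.

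Cyp24a1 (chromosome 2, 170482957 to 170497145) was read by 2 probe sets. The one with the higher mean had log2 signals of 9.52 in Tet2KO_IR, 8.55 in Tet2KO_Sham, 11.02 in WT_IR and 8.03 in WT_Sham. Its WT_IR signal was the highest of the 4, and both ischemia-reperfusion arrays were above both sham arrays. In wild type the log2 ratio of ischemia-reperfusion to sham was 2.999, a 7.996-fold difference, above 99.9% of 13531 measured genes. In the Tet2KO-labelled pair it was 0.97, or 1.96-fold, just short of the 2-fold line, and against the wild-type sham array it was 1.49. Tet2KO_IR was 2.84-fold lower than WT_IR. The other probe set ran the same way in every pair, with log2 ratios of 0.52 in the Tet2KO-labelled pair and 2.16 in the wild-type pair, and -1.40 between the ischemia-reperfusion arrays.

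Between the sham arrays Cyp24a1 had the highest ratio of the 8 genes, 0.52 on the log2 scale, or 2.66 times the technical SD. Its other probe set had 0.25. No member reached 2-fold between the sham arrays in either direction, where 0.186% of 13474 measured genes were higher and 0.846% lower.

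Vdr, the nuclear receptor for calcitriol (chromosome 15, 97854427 to 97908296), had log2 signals of 10.15 in Tet2KO_IR, 11.03 in Tet2KO_Sham, 11.12 in WT_IR and 10.91 in WT_Sham. Only the Tet2KO_IR array was low on this probe set. The log2 ratios of ischemia-reperfusion to sham were -0.88 in the Tet2KO-labelled pair and 0.21 in wild type, and the wild-type value was within the technical SD. On the other probe set, which read 9.67, 10.40, 10.15 and 10.36 in the same order of arrays, the ratios were -0.73 and -0.22. The probe sets thus disagreed on the sign in wild type. Tet2KO_IR was 1.96-fold lower than WT_IR.

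Klotho, made mainly by the distal convoluted tubule and also by the proximal tubule, is encoded by Kl (chromosome 5, 150952607 to 150993817). The probe set with the higher mean had log2 signals of 10.04 in Tet2KO_IR, 12.65 in Tet2KO_Sham, 11.69 in WT_IR and 12.45 in WT_Sham. Both ischemia-reperfusion arrays were under both sham arrays, and Tet2KO_IR was the lowest. Kl was 6.12-fold lower in Tet2KO_IR than in Tet2KO_Sham, a log2 ratio of -2.61, with 0.713% of measured genes below it. In the wild-type pair it was 1.69-fold lower, a log2 ratio of -0.76, and Tet2KO_IR was 3.15-fold lower than WT_IR.

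The second Kl probe set gave smaller ratios of the same sign. It read 6.56 in Tet2KO_IR, 7.35 in Tet2KO_Sham, 6.82 in WT_IR and 7.29 in WT_Sham. Its log2 ratios were -0.79 in the Tet2KO-labelled pair, -0.47 in wild type and -0.26 between the ischemia-reperfusion arrays, so by this probe set Kl reached 2-fold in none of these comparisons. With the median of both probe sets, Kl was lower by a log2 ratio of -1.70 in the Tet2KO-labelled pair, and its ratio of -0.96 between the ischemia-reperfusion arrays was no longer at 2-fold.

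The receptors for parathyroid hormone and for calcium differed by less than 2-fold in these comparisons. Pth1r, the receptor for parathyroid hormone (chromosome 9, 110722085 to 110747145), had log2 signals of 11.44 in Tet2KO_IR, 12.06 in Tet2KO_Sham, 11.98 in WT_IR and 11.61 in WT_Sham. Its ratio to sham was -0.62 in the Tet2KO-labelled pair and 0.37 in wild type. The sham arrays themselves differed by 0.45, and against the sham array of the other genotype the ratios were -0.17 for Tet2KO_IR and -0.08 for WT_IR. The opposite signs of Pth1r therefore rest on the choice of sham array. Casr, the calcium-sensing receptor of the thick ascending limb (chromosome 16, 36490585 to 36562141), read 7.26 in Tet2KO_IR, 8.02 in Tet2KO_Sham, 7.96 in WT_IR and 8.21 in WT_Sham, with ratios of -0.76 and -0.25 to sham. Its second probe set was under the floor in all 4 arrays. Thick ascending limb markers, all 6 matched, summed to linear signals of 20657 in Tet2KO_IR, 43167 in Tet2KO_Sham, 38047 in WT_IR and 47464 in WT_Sham, and 5 of 6 were lower at 2-fold in the Tet2KO-labelled pair, against 1 in wild type. Of all measured genes 6.89% were lower in the Tet2KO-labelled pair and 2.18% in the wild-type pair. The marker list of the thick ascending limb includes Cldn16, and its part in the Casr and Cldn16 values was not tested.

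Calb1, the larger calbindin, which carries calcium through cells of the distal tubule (chromosome 4, 15881264 to 15906709), was read by 4 probe sets. The one with the highest mean had log2 signals of 10.87 in Tet2KO_IR, 13.09 in Tet2KO_Sham, 12.28 in WT_IR and 13.02 in WT_Sham. Calb1 was 4.65-fold lower in Tet2KO_IR than in Tet2KO_Sham and 1.67-fold lower in WT_IR than in WT_Sham, and Tet2KO_IR was 2.66-fold lower than WT_IR. Of the other probe sets, those with the next 2 highest means gave log2 ratios of -2.88 and -2.50 in the Tet2KO-labelled pair and -1.21 and -0.96 in wild type. The dimmest had -0.58 and 0.22, and was under the floor in Tet2KO_IR, so -0.58 is a bound.

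S100g, the smaller calbindin (chromosome X, 162961992 to 162964599), had log2 signals of 12.97 in Tet2KO_IR, 13.48 in Tet2KO_Sham, 13.71 in WT_IR and 13.50 in WT_Sham. Tet2KO_IR was the lowest array here too, but by less than 1 log2 unit. The ratios to sham were -0.51 in the Tet2KO-labelled pair and 0.21 in wild type, against -2.22 and -0.74 for Calb1. Markers of the distal convoluted and connecting tubule, 7 of 10 matched and all over the floor, summed to linear signals of 4293 in Tet2KO_IR, 22345 in Tet2KO_Sham, 12044 in WT_IR and 24174 in WT_Sham. Egf held most of that sum in the sham arrays and was 24.6-fold lower in the Tet2KO-labelled pair. Of the 7 markers, 4 were lower at 2-fold in the Tet2KO-labelled pair and 2 in wild type, with 0 higher in either. Of all measured genes 6.89% were lower and 6.06% higher in the Tet2KO-labelled pair, and 2.18% and 2.06% in the wild-type pair. Like Calb1, the sum was lower after ischemia-reperfusion in both pairs and lowest in Tet2KO_IR. The sums of proximal tubule, thick ascending limb and collecting duct markers were lowest in Tet2KO_IR too. The part of any of these segments in the Calb1 and Kl signals was not tested.

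As a group, 1 of the 8 genes was higher and 2 were lower at 2-fold or more in Tet2KO_IR over Tet2KO_Sham, where 6.06% of 13600 measured genes were higher and 6.89% lower. In WT_IR over WT_Sham 1 was higher and 0 lower, where 2.06% of measured genes were higher and 2.18% lower. In Tet2KO_IR over WT_IR 1 was higher and 3 were lower (Kl, Cyp24a1 and Calb1), where 3.68% of 13492 genes were higher and 3.99% lower. The median log2 ratio of the 8 was -0.69 in the Tet2KO-labelled pair, against -0.02 over all measured genes, and -0.02 in the wild-type pair, against 0.02. Between the ischemia-reperfusion arrays it was -0.85, with 7 of 8 ratios below 0, and all measured genes had a median of -0.01. The comparisons share arrays, so their values are not independent of each other. As the 8 genes were chosen with earlier results of these data known, their counts and medians are a description only.

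**Figure D2:**
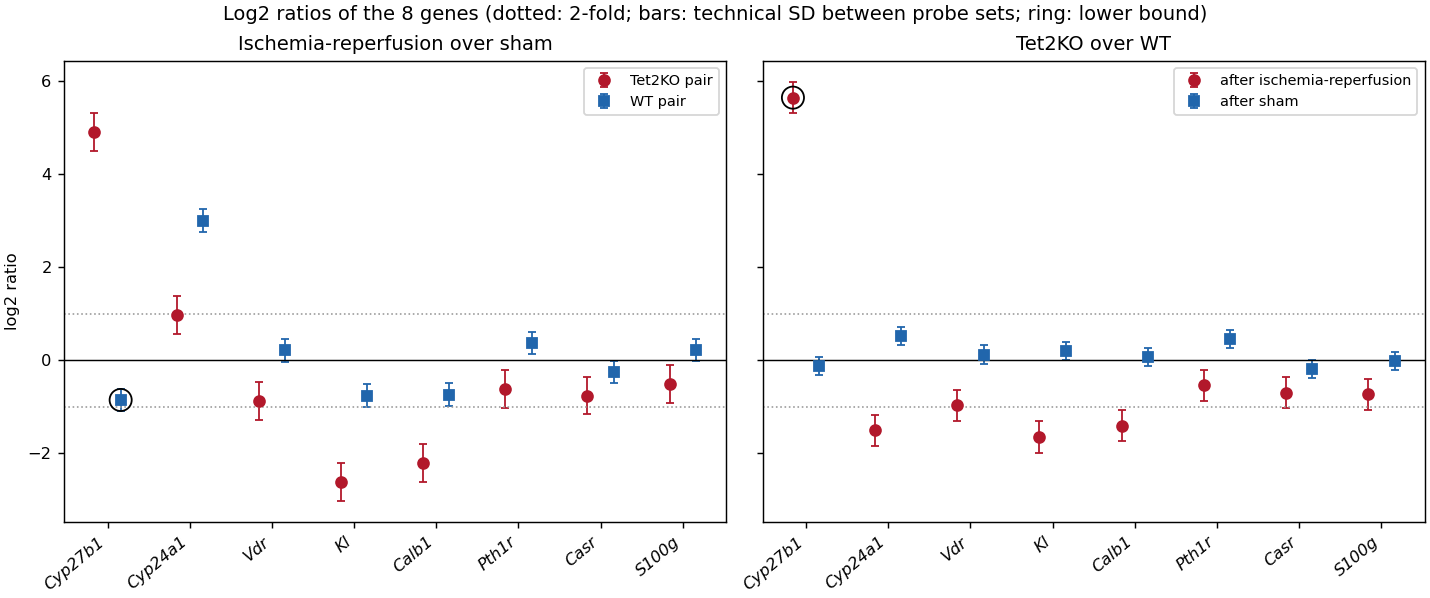
Log2 ratios of the 8 genes: ischemia-reperfusion over sham on the left (circles, Tet2KO-labelled pair; squares, wild-type pair) and Tet2KO over WT on the right (circles, after ischemia-reperfusion; squares, after sham). Bars show 1 technical SD either way, dotted lines 2-fold, and a ring a bound; Cyp27b1 lies at 4.91 and -0.86 on the left, and in the sham comparison all 8 genes lie between -0.19 and 0.52.

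The response of the Tet2KO-labelled pair minus that of the wild-type pair, a log2 difference with a technical SD of 0.39, was at or past 2-fold for 5 of the 8 genes. It was at least 5.77 for Cyp27b1, the only gene of the 8 above 0, and 99.97% of 13808 measured genes lay lower. It was -2.03 for Cyp24a1, -1.85 for Kl, -1.47 for Calb1 and -1.09 for Vdr. With the median over its probe sets Vdr had -0.80, short of 2-fold, which leaves 3 lower in place of 4. Pth1r had -0.99, S100g -0.72 and Casr -0.51. Of all measured genes 4.75% were at 2-fold or more above 0 and 4.77% below, and the 8 had a median of -1.04, against -0.03 over all.

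**Figure D3:**
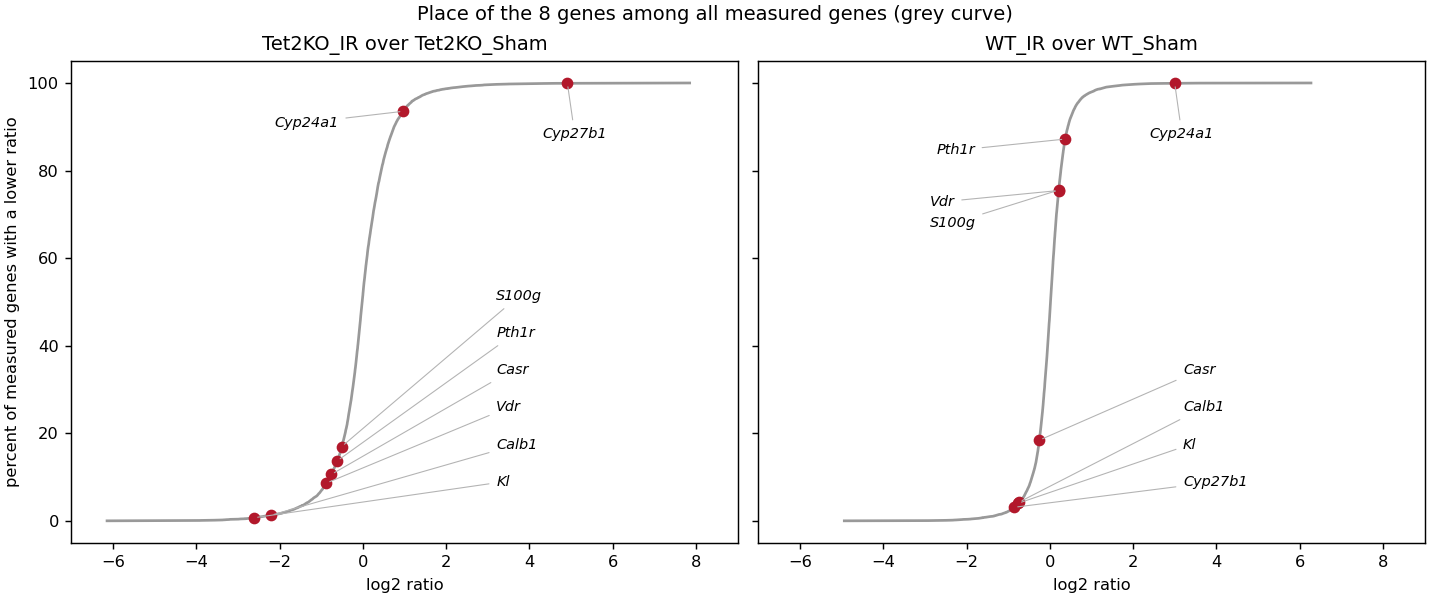
Percent of measured genes with a lower log2 ratio of ischemia-reperfusion to sham, against that ratio, in the Tet2KO-labelled pair (left) and the wild-type pair (right); the grey curve is all measured genes and each point 1 of the 8. Cyp27b1 is at the top of the left curve and Cyp24a1 at the top of the right one, while Kl and Calb1 lie at the low end of both.

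Genes with the most similar profile were sought for the 4 members whose signal spanned 1 log2 unit or more, as the smallest root mean square distance between centred log2 profiles over the 4 arrays, among 2418 genes of at least that span. Nearest to Kl were Tmem25 at 0.016, Bdh1 at 0.039 and Eci3 at 0.045. Nearest to Calb1 were Slc15a2 at 0.037, Lrp2 at 0.042 and Ugt3a1 at 0.049. Kl and Calb1 lay 0.14 apart, with 29 genes nearer to Kl than Calb1 was. The enzymes had no such close matches. Cyp27b1 had Hp, which encodes haptoglobin, at 0.65, Calcb at 0.75 and Grp at 0.82, and Cyp24a1 had Aldh1a7 at 0.39, Pappa at 0.40 and Chek1 at 0.44. Over 4 arrays these distances are a description, and many genes share any such shape.

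The wider pathway was read in 5 lists with 69 genes, of which 62 were matched to the array and 55 reached the floor in 1 or more arrays. For the counts of each list, 6.06% of all measured genes were higher and 6.89% lower in the Tet2KO-labelled pair. These shares were 2.06% and 2.18% in the wild-type pair, and 3.68% and 3.99% between the ischemia-reperfusion arrays. In vitamin D activation and transport, 0 of 10 measured genes were higher and 3 lower in the Tet2KO-labelled pair, against 0 higher and 0 lower in wild type, with medians of -0.45 and -0.18. The 3 were Lrp2 (4.39-fold lower) and Cubn (3.60-fold lower), the endocytic receptors that take up filtered vitamin D with its binding protein, and Pdia3 (2.27-fold lower), a protein disulfide isomerase. In wild type Lrp2 had a log2 ratio of -0.74 and Cubn -0.17. The other Lrp2 probe sets ranged from -1.81 to -0.23 in the Tet2KO-labelled pair, and the other Cubn probe set had -2.14. The other Pdia3 probe set had -0.84 in that pair, short of 2-fold. Between the ischemia-reperfusion arrays Cubn, by 3.14-fold, and Lrp2, by 2.48-fold, were the 2 lower of 10, and 0 were higher. There the other Lrp2 probe sets ranged from -1.11 to -0.11, and the other Cubn probe set had -1.80. Proximal tubule markers, which include both, had all 10 genes matched and summed to linear signals of 28476 in Tet2KO_IR, 69027 in Tet2KO_Sham, 54437 in WT_IR and 66772 in WT_Sham, and their part in these values was not tested. Cyp27a1, a sterol hydroxylase that can make the precursor of calcitriol, had -0.83 and -0.19 in the same pairs, while Cyp2r1, the main enzyme of that step in liver, was under the floor throughout. Gc, the vitamin D binding protein, was not matched and not analysed here.

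In FGF23 and klotho signalling, Egr1, an early response gene induced by FGF23 among many stimuli, was the 1 of 11 measured genes higher in the Tet2KO-labelled pair, by 4.28-fold, and 0 were lower. Its log2 signals were 10.60 in Tet2KO_IR, 8.51 in Tet2KO_Sham, 10.85 in WT_IR and 11.45 in WT_Sham, so that the Tet2KO_Sham array stood low and Tet2KO_IR was under both wild-type arrays. In wild type 0 were higher and 1 lower, the kinase gene Sgk1 by 2.16-fold. Of all measured genes 2.18% were lower in the wild-type pair, and 6.06% were higher in the Tet2KO-labelled pair. Fgf23 was under the floor in all 4 arrays. Fgfr1, the receptor that binds FGF23 with klotho, had log2 ratios to sham of 0.17 in the Tet2KO-labelled pair and 0.22 in wild type, with other probe sets from -0.48 to 0.55 in the Tet2KO-labelled pair and from -0.28 to -0.19 in wild type. The list's medians were -0.14 in the Tet2KO-labelled pair and -0.12 in wild type, and between the ischemia-reperfusion arrays 0 of 11 genes were higher and 0 lower.

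Phosphate carriers went both ways, in both genotypes. Of 9 measured genes 2 were higher and 3 lower in the Tet2KO-labelled pair, against 2 higher and 1 lower in wild type, with medians of -0.34 and -0.27. Slc20a1, a widely expressed phosphate carrier, was 4.26-fold higher in the Tet2KO-labelled pair and 3.83-fold higher in wild type. Its other probe sets were under the floor in the sham arrays, with ratios from 0.00 to 1.49 and from 0.00 to 0.04. There 0.00 stands for signals under the floor in both arrays, and 1.49 and 0.04 are bounds. Slc34a2, the phosphate carrier known from intestine and lung, was 3.53-fold and 5.16-fold higher. Slc34a3, a proximal tubule carrier that FGF23 and parathyroid hormone lower, was 3.85-fold and 3.05-fold lower in these pairs. Slc34a1, the main carrier of that segment, had log2 ratios of -1.21 and -0.86, and Pdzk1, which anchors carriers in the brush border, -1.74 and -0.49. Slc34a1 is also among the proximal tubule markers, and the part of that segment in these values was not tested. Between the ischemia-reperfusion arrays 1 gene was higher, the scaffold gene Slc9a3r2 by 2.46-fold, with its other probe sets from 0.04 to 0.68, and 1 lower, Pdzk1 by 2.16-fold.

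In calcium and magnesium transport, 0 of 13 measured genes were higher and 3 lower in the Tet2KO-labelled pair, against 0 higher and 1 lower in wild type, with medians of -0.69 and -0.09. Pvalb, a calcium-binding protein of the early distal convoluted tubule, was 11.1-fold lower in the Tet2KO-labelled pair and 2.91-fold lower in wild type. Slc8a1, the sodium-calcium exchanger that passes calcium to the blood in the distal nephron, had log2 signals of 6.83 in Tet2KO_IR, 9.95 in Tet2KO_Sham, 9.10 in WT_IR and 10.02 in WT_Sham. Its ratios to sham were -3.12 and -0.92, with other probe sets from -1.34 to 0.00 and from -0.94 to 0.00. Here 0.00 stands for signals under the floor in both arrays of the pair. Cldn16, a tight-junction protein of the thick ascending limb needed for magnesium and calcium uptake, had -1.36 in the Tet2KO-labelled pair and 0.47 in wild type. Atp2b1, a plasma membrane calcium pump, had 0.29 in both pairs, with other probe sets from 0.11 to 1.23 in the Tet2KO-labelled pair and from 0.098 to 0.12 in wild type. The calcium channel gene Trpv6 was under the floor in all 4 arrays, and Trpv5 was not matched and not analysed here. Between the ischemia-reperfusion arrays 4 of 13 were lower and 0 higher: Pvalb, Slc8a1, Cldn16 and the potassium channel gene Kcnj10, by 6.65-fold, 4.82-fold, 3.03-fold and 2.12-fold. The other Slc8a1 probe sets ranged from -0.75 to 0.00 there, with none at 2-fold. Pvalb, Slc8a1 and Kcnj10 are also among the distal convoluted and connecting tubule markers, so the 2 lists are not separate observations. The part of that segment in these values was not tested.

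In parathyroid hormone and calcium receptor signalling, 1 of 12 measured genes was higher and 0 lower in each pair. It was Rcan1, an inhibitor of the calcium-dependent phosphatase calcineurin, with log2 ratios of 1.58 in the Tet2KO-labelled pair and 1.002 in wild type, and 1.48 and 0.14 on its other probe set. The list's medians were 0.15 and 0.02, and 6.06% and 2.06% of all measured genes were higher in these pairs. The G protein genes Gnas and Gna11, which act downstream of Pth1r and Casr, had ratios of -0.42 and 0.21 in the Tet2KO-labelled pair and of -0.07 and -0.12 in wild type. Pde4d, a cAMP phosphodiesterase, was the 1 gene lower between the ischemia-reperfusion arrays, by 2.04-fold, with -0.31 on the other probe set. The hormone gene Pth was under the floor in all 4 arrays. The heat map of these genes shows the lists side by side.

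**Figure D4:**
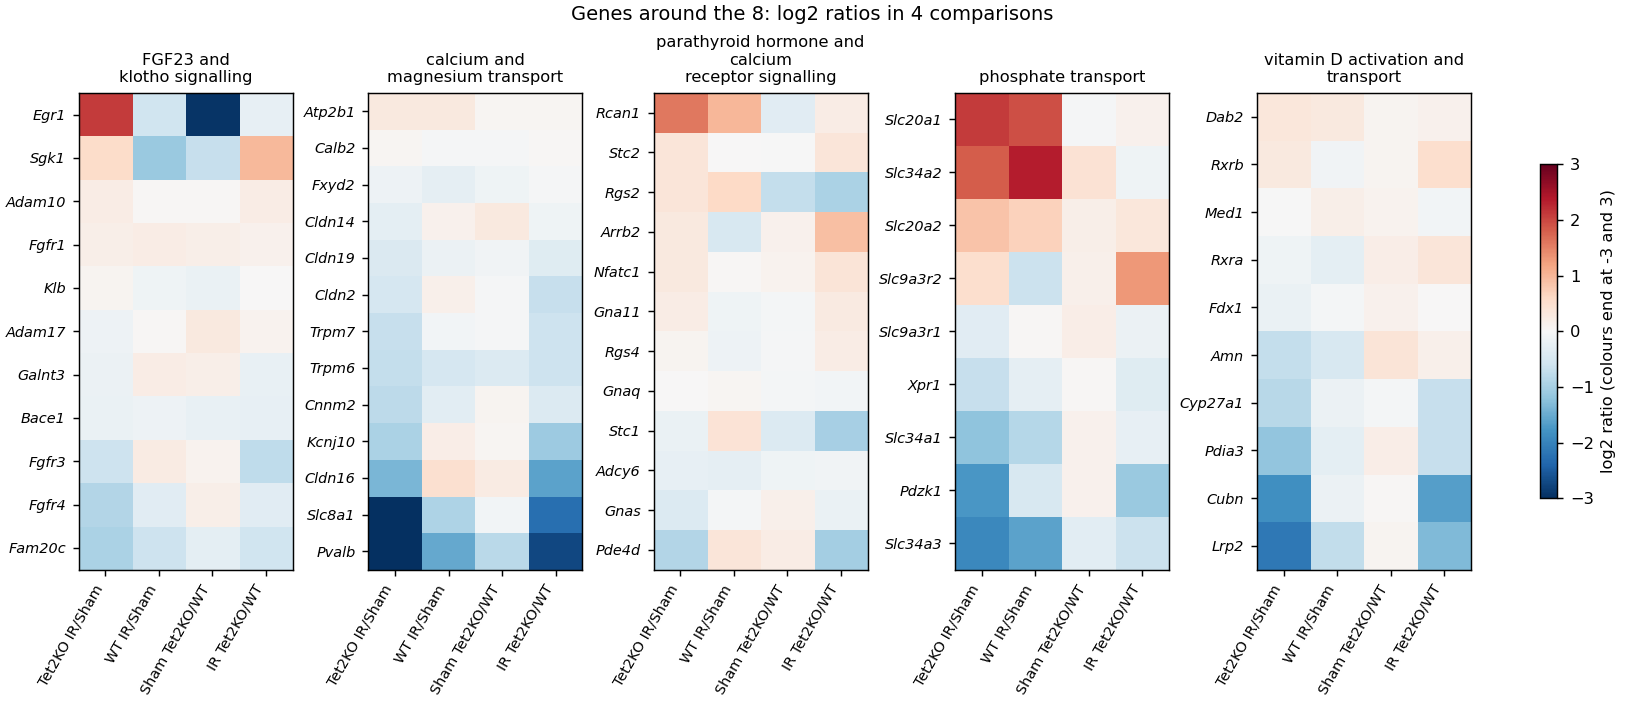
Log2 ratios of the measured pathway genes of the 5 lists (rows, sorted by the first column) in 4 comparisons of single arrays (columns), red above 0 and blue below, with colours ending at -3 and 3. On the probe sets used, Lrp2, Cubn, Slc8a1 and Pvalb are blue, past 2-fold, in the Tet2KO-labelled pair and between the ischemia-reperfusion arrays. Slc20a1 and Slc34a2 are red in both pairs.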

How the data were processed

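Kidney RNA, pooled from 3 mice per group, was measured on 4 Affymetrix arrays, 1 per group. The deposited values are log2 signals made by the authors; the unit was inferred from their range, 2.51 to 14.97. The submitters' processing notes name MAS5, and the scaling between arrays is not given in the sources used here.

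From them, with Python 3.11.15 and pandas 2.3.3, each gene was read from its probe set with the highest mean signal, and one ending in _x_at only where there was no other. Genes came from the array annotation (34945 probe sets with 1 symbol). Signals under the 40th percentile, 5.72 (52.8 linear), were set to it, and a gene was measured in a comparison if 1 or more of its arrays reached it. Log2 ratios were taken for 5 comparisons, with a 2-fold line and no test; the number of arrays limits the precision. Ratio and SD functions were tested on simulated data. All 8 members are named; of each pathway list, the 3 genes with the largest ratios past 2-fold and 13 fixed genes are named, plus a few chosen after their values were seen (Gnas, Gna11, Pth, Kcnj10). The members and lists were chosen with earlier results of these data known. Alternatives tried were no floor, a floor at the 50th percentile, a pseudocount of 50, other probe set rules, quantile normalization, the other sham array and a 1.5-fold line.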

Additional observations from a re-analysis of the deposited data

Results flagged for a closer look

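Cyp27b1 moved in opposite directions in the genotypes: ischemia-reperfusion over sham was 4.91 on the log2 scale in the Tet2KO-labelled pair and -0.86, a bound, in wild type, a difference in response of 5.77. The difference was not tested, and the value rests on 1 probe set and on the single Tet2KO_IR array. With a floor at the 50th percentile the wild-type ratio was -0.27, about the technical SD of 0.24.

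Pth1r also moved in opposite directions, by -0.62 in the Tet2KO-labelled pair and 0.37 in wild type, a difference of -0.99 that was not tested. Neither ratio reached 2-fold, and against the sham array of the other genotype they were -0.17 and -0.08, so the opposite direction is lost.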

How the results depend on the processing

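The median log2 ratio of the 8 genes stayed within the technical SD of its value in each comparison and under each alternative run. With the sham array of the other genotype as control, 2 of the 8 were higher in Tet2KO_IR in place of 1, as Cyp24a1 passed the line. With a 1.5-fold line, 2 were higher and 5 lower in the Tet2KO-labelled pair (all measured genes 14.6% and 14.5%), 3 were lower in wild type (6.29%) and 6 were lower between the ischemia-reperfusion arrays (10.5%). With no floor, 1 was lower in wild type, Cyp27b1, at -1.34, while with a floor at the 50th percentile its ratio there was -0.27. Of 251 values of single genes under alternatives, 17 moved by more than the technical SD and 0 changed sign among those at 2-fold. The Cyp27b1 difference in response ranged from 5.02 with a pseudocount to 6.25 with no floor. Casr has no plain _at probe set and was left out of that alternative. No paired analysis was possible because each group has 1 array. Signals near the floor limit Cyp27b1 in wild type and the dimmest probe sets of Calb1 and Casr.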
